A study of Danio rerio with 19 samples.

Results

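The MCM genes encode the replicative helicase, the ring that opens DNA ahead of the replication fork, and they were followed here in 4 zebrafish RNA libraries. All gene names made of mcm and a digit were taken, which gave 8 of the 14244 names in the RNA tables: mcm3, mcm3l, mcm4, mcm5, mcm6, mcm6l, mcm7 and mcm10. A row named mcm2, mcm8 or mcm9 was not found, and those genes are not analysed here. The names were chosen with results of these libraries known, so the values below are descriptions.

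In eukaryotic cells the proteins of mcm2 to mcm7 form a ring of 6 different subunits that is loaded on DNA at replication origins as an inactive double ring. Kinases, Cdc45 and the GINS complex then turn the ring into the moving helicase. Early fish embryos divide fast with hardly any gap phases, on proteins and RNA laid down in the egg, before their own genome takes over. In the frog Xenopus, MCM3 and MCM6 each exist as a maternal and a zygotic form encoded by separate genes. The zebrafish tables list both members of each pair, and RefSeq gives MCM3m and MCM6m as synonyms of mcm3l and mcm6l, and MCM3z and MCM6z as synonyms of mcm3 and mcm6.

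The series holds 19 samples of Tubingen fish with 1 sample per group, and RNA was sequenced from egg, from 1k-cell embryos (blastulae), from germ ring embryos (at the onset of gastrulation), and from sperm. The labels give no mutation and no treatment for any of them. RNA was selected by its poly(A) tail, and how the gametes used for RNA were collected is not given in the sources used here. With 1 library per group no test was possible, so intervals cover counting error only and say nothing of the spread between animals.

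The libraries held 9241829 reads for egg, 24256918 for the 1k-cell stage, 14753999 for germ ring and 21138688 for sperm. Values are normalized counts scaled by the authors; 1 read was worth 1.98 in egg, 0.951 at the 1k-cell stage, 1.51 at germ ring and 0.993 in sperm. They are relative values and not shares of a common total. More RNA per cell, more cells and less of other RNA therefore cannot be told apart. Because RNA was selected by its poly(A) tail, a difference in tail length cannot be told apart from these either. Sums over lists of cell type marker genes differed widely between libraries, and the counts here are of listed genes that were found. All 10 sperm tail genes found, of 21 listed, reached a normalized count of 10 in sperm (sum 33.7 in egg, 121914 in sperm). So did 11 of 12 oocyte genes, all but figla, which had no read in any library (6329 in egg, 290736 in sperm), and 12 of 13 red blood cell genes (65.5 in egg, 86678 in sperm). All 13 exocrine pancreas genes (13.9 in egg, 32229 in sperm), all 10 testis somatic cell genes (2921 in egg, 20326 in sperm) and all 10 meiotic germ cell genes (5787 in egg, 40564 in sperm) reached 10 in sperm too. Reaching 10 was common, for 12319 of the 14244 names in sperm and 9640 in egg, so these counts alone show little. Outside sperm the sum reached at most 7351 for testis somatic genes (1k-cell), 10314 for meiotic genes (germ ring) and 12738 for oocyte genes (1k-cell). Of 18 epidermis genes 17 reached 10 in egg. The sum of the 18 was 203949 in egg, 780 at the 1k-cell stage, 253141 at germ ring and 21438 in sperm. Their median was 1881.5 in egg and 193.6 at germ ring. The gene krt15 was among those with no read at the 1k-cell stage, and it had none at germ ring either. Whether cells of these other types were present, and what part they had in the MCM values, was not tested.

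The 8 MCM genes are described in 3 sets by their level in egg against the embryo stages. Within a set the full order of the libraries differed, except that mcm3 and mcm6 share one. The genes mcm7, mcm10 and mcm6l were highest in egg. The genes mcm4, mcm5 and mcm3l were lowest in egg and, as deposited, more than 10-fold higher at the 1k-cell stage. The genes mcm3 and mcm6 had at most 33 reads in either of the egg and 1k-cell libraries and had 1745 and 3299 reads at germ ring.

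**Figure D1:**
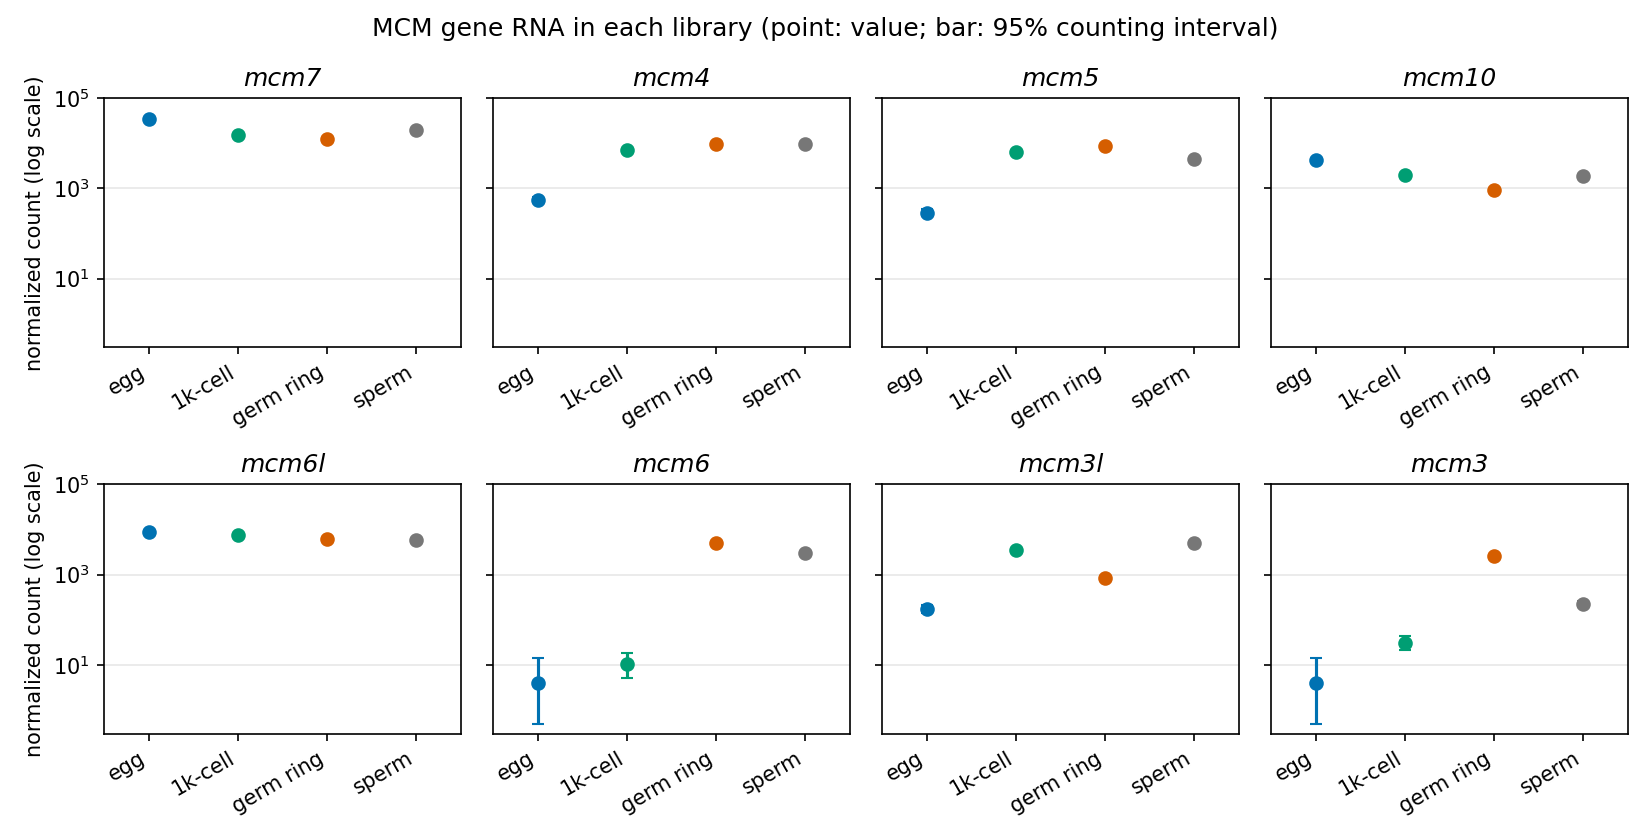
Normalized count of each MCM gene (vertical log axis) in the egg, 1k-cell, germ ring and sperm libraries, 1 library per point, with the 95% counting interval as a bar where it is wider than the point. The points of mcm6 and mcm3 lie at or below 31.4 in egg and 1k-cell and at 4970 and 2629 at germ ring, while those of mcm7 and mcm6l stay within 3-fold over all 4 libraries as deposited, though not under median-of-ratios scaling, where their log2 ratios of egg to sperm are 2.04 and 1.82.

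The pairs of gene copies come first. The level of mcm6, a subunit of the ring, was 3.97 normalized counts in egg (2 reads), 10.5 at the 1k-cell stage (11 reads), 4970 at germ ring (3299 reads) and 3029 in sperm (3049 reads). The level of its copy mcm6l was 8695 in egg, 7694 at the 1k-cell stage, 6201 at germ ring and 5905 in sperm. Thus mcm6 was high at germ ring and in sperm alone, while mcm6l, as deposited, differed by 1.47-fold between its highest library, egg, and its lowest, sperm. That narrow range depends on the scaling: the log2 ratio of egg to sperm for mcm6l was 0.56 as deposited, 1.82 by median of ratios and 1.62 by upper quartile.

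At germ ring mcm6 was 475-fold higher than at the 1k-cell stage (95% counting interval 265 to 953), and 1252-fold higher than in egg (346 to 10344). The 11 reads at the 1k-cell stage against 2 in egg gave a ratio of 2.63 with an interval of 0.575 to 24.5, so a difference between these stages was not detectable at this depth. Of the reads of the pair, mcm6 held 44.5% at germ ring (exact 95% interval 43.4 to 45.6) and 0.136% at the 1k-cell stage (0.0678 to 0.243). In egg it held 0.0456%, which is 2 of 4383 reads (0.00553 to 0.165), and in sperm 33.9% (32.9 to 34.9).

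The level of mcm3, another subunit of the ring, was 3.97 in egg (2 reads), 31.4 at the 1k-cell stage (33 reads), 2629 at germ ring (1745 reads) and 225 in sperm (226 reads). The level of its copy mcm3l was 175 in egg (88 reads), 3429 at the 1k-cell stage, 845 at germ ring and 4973 in sperm. The order of the libraries was that of mcm6 for mcm3, but mcm3l and mcm6l differed in theirs. Between the embryo stages the copies differed in opposite directions: at germ ring against the 1k-cell stage mcm3 was 83.8-fold higher (59.4 to 122) and mcm3l 4.06-fold lower (3.71 to 4.44).

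The share of mcm3 in its pair was 75.7% at germ ring (73.9 to 77.4), against 0.907% at the 1k-cell stage (0.625 to 1.27). It was 2.22% in egg, on 90 reads (0.270 to 7.80), and 4.32% in sperm (3.78 to 4.91). In sperm the pairs thus differed, with 33.9% of the mcm6 pair and 4.32% of the mcm3 pair on the copy that was high at germ ring. A share within a library is not affected by the scaling between libraries, but it counts reads, not molecules, since transcript lengths are not given. Whether reads of stretches that the copies share were counted under the wrong copy was not tested. In egg 4381 reads lay on mcm6l and 2 on mcm6. That count bears only on mcm6l reads counted under mcm6, not on the reverse and not on the mcm3 pair.

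**Figure D2:**
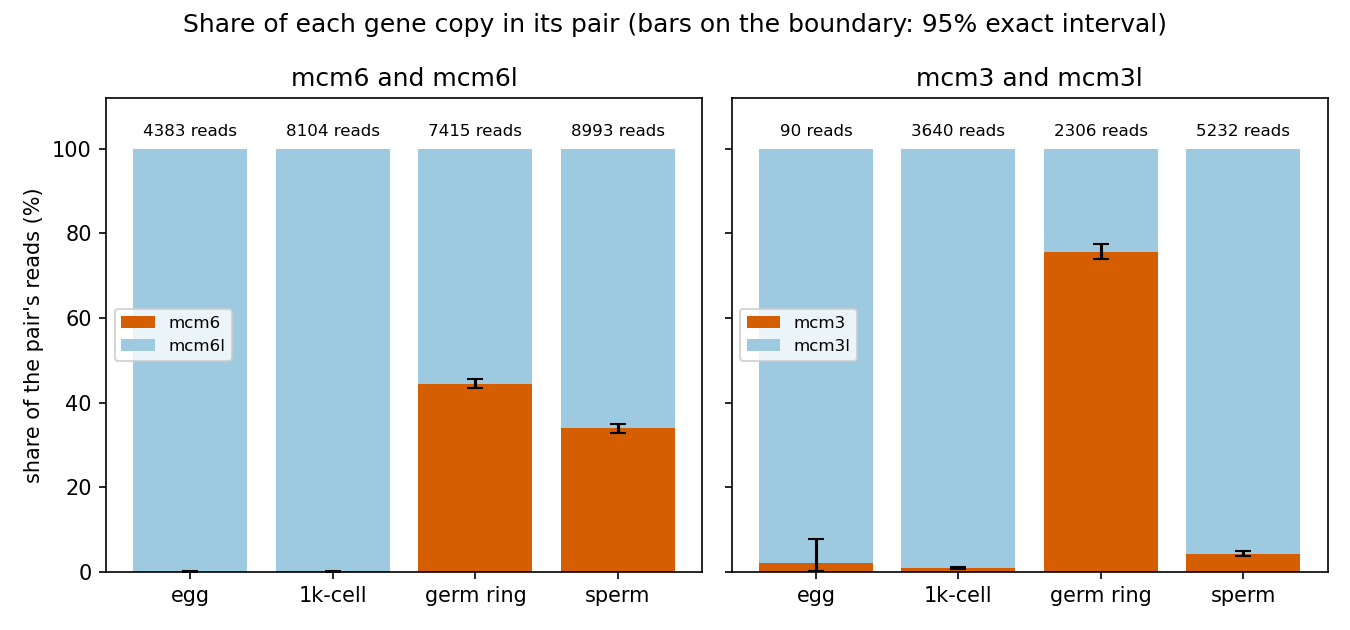
Share of the reads of each pair that lay on each copy, in percent, by library, with the number of reads of the pair above each column and the exact 95% interval on the boundary. The copies mcm6 (left) and mcm3 (right) hold 44.5% and 75.7% at germ ring, and 0.136% and 0.907% at the 1k-cell stage.

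The copies of each pair were also summed. The sum of mcm3 and mcm3l was 3474 at germ ring and 3461 at the 1k-cell stage, a ratio of germ ring to 1k-cell of 1.00 (0.952 to 1.06). This equality depends on the scaling: the log2 ratio was 0.01 as deposited and 0.53 under median-of-ratios scaling. That scaling takes the names with reads in every library. It divides each library by the median ratio of these names to their own geometric mean over the libraries. The sum of mcm6 and mcm6l was 8699 in egg, 7705 at the 1k-cell stage, 11172 at germ ring and 8934 in sperm. It was 1.45-fold higher at germ ring than at the 1k-cell stage (1.405 to 1.497), with a log2 ratio of 0.54 as deposited and 1.06 under median-of-ratios scaling. Against egg the sum at the 1k-cell stage had a log2 ratio of -0.18 for the mcm6 pair and 4.28 for the mcm3 pair. In egg the mcm3 pair had 179 normalized counts.

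The remaining ring subunits, mcm4, mcm5 and mcm7, have 1 copy each in the tables. The MCM4, MCM6 and MCM7 proteins form a subcomplex with helicase activity of its own in the test tube, and MCM5 sits with MCM2 at the gate through which DNA enters the ring. The level of mcm4 was 560 in egg, 7031 at the 1k-cell stage, 9365 at germ ring and 9533 in sperm. The level of mcm5 was 290 in egg, 6402 at the 1k-cell stage, 8773 at germ ring and 4572 in sperm. Both were low in egg alone.

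The 1k-cell library was 12.6-fold higher than egg for mcm4 (11.2 to 14.2) and 22.1-fold higher for mcm5 (18.8 to 26.2). At germ ring against the 1k-cell stage the folds were 1.33 (1.29 to 1.38) and 1.37 (1.32 to 1.42). For mcm4 the germ ring and sperm levels could not be told apart by counting (ratio of germ ring to sperm 0.982, interval 0.951 to 1.01), while mcm5 was 1.92-fold higher at germ ring (1.85 to 2.00). These folds depend on the scaling. For mcm4 and mcm5, log2 ratios of 1k-cell to egg were 3.65 and 4.46 as deposited and 2.37 and 3.18 by median of ratios. For germ ring to 1k-cell they were 0.41 and 0.45, then 0.93 and 0.98. For germ ring to sperm they were -0.03 and 0.94, then 0.48 and 1.44.

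The level of mcm7 was 33460 in egg, 15208 at the 1k-cell stage, 12315 at germ ring and 19614 in sperm. It was highest in egg, where mcm4 and mcm5 were lowest and where it ranked 60th of all names. As deposited it was lowest at germ ring, where it ranked 286th. At the 1k-cell stage its log2 ratio to egg was -1.14 (lower by 2.15-fold to 2.25-fold). At germ ring it was 2.72-fold lower than in egg (2.65 to 2.79), a log2 ratio of -1.44. These folds depend on the scaling. By median of ratios the log2 ratios to egg were -2.42 at the 1k-cell stage and -2.20 at germ ring. The ratio of germ ring to 1k-cell was then 0.22, so germ ring was no longer the lowest. Of the summed normalized counts of all 8 MCM genes, mcm7 made up 70.6% in egg, 36.4% at the 1k-cell stage, 26.8% at germ ring and 39.5% in sperm.

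The gene mcm10 encodes no ring subunit but a factor that binds the assembled helicase and is needed to start unwinding. Its level was 4182 in egg, 1970 at the 1k-cell stage, 904 at germ ring and 1866 in sperm. It was 2.12-fold lower at the 1k-cell stage than in egg (2.00 to 2.26) and 4.63-fold lower at germ ring than in egg (4.22 to 5.07). These folds depend on the scaling: the log2 ratios to egg were -1.09 and -2.21 as deposited and -2.37 and -2.97 by median of ratios. As deposited, the 1k-cell and sperm levels could not be told apart by counting (ratio of 1k-cell to sperm 1.06, interval 0.992 to 1.12).

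The summed normalized counts of the 8 genes were 47369 in egg, 41777 at the 1k-cell stage, 46004 at germ ring and 49716 in sperm, so the highest sum was 1.19-fold the lowest as deposited. This too depends on the scaling. Egg, not sperm, had the highest sum with equal totals, by median of ratios and by upper quartile. There it was 1.43-fold, 2.76-fold and 2.88-fold the lowest sum, that of the 1k-cell stage. As deposited the log2 ratio of the 1k-cell sum to the egg sum was -0.18. This ratio was -0.52 with equal totals, -1.47 by median of ratios and -1.52 by upper quartile. The make-up of the sum within a library does not change with the scaling. The copies mcm3 and mcm6 held 0.0168% of the sum in egg, 0.1001% at the 1k-cell stage, 16.5% at germ ring and 6.54% in sperm. The genes mcm4 and mcm5 held 1.79% in egg, 32.2% at the 1k-cell stage, 39.4% at germ ring and 28.4% in sperm.

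Calls against all genes used log2 ratios of the normalized count plus 1, a limit of 2-fold, and names at 10 or more in either library. At the 1k-cell stage against egg, 5 of the 8 MCM genes were 2-fold or more higher and 2 lower, with 54.7% of the 10685 names compared higher and 12.5% lower (29.8% and 33.8% under median-of-ratios scaling). The median log2 ratio was 1.95 for the MCM genes and 1.24 for all names. Set against that median, mcm5 stood at 3.22, mcm3l at 3.04 and mcm4 at 2.40, whereas mcm7 stood at -2.38, mcm10 at -2.33 and mcm6l at -1.42. The ratio of mcm6 was 0.04 below the median. As deposited, a count of 5 of 8 lies near the background, and 2 of the 5, mcm3 and mcm6, rest on 2 reads each in egg. By median of ratios 4 of the 7 MCM genes compared were higher and 3 lower, beside 29.8% and 33.8% of all names. The call of mcm6 is lost in each of the 3 other scalings (log2 ratios 0.05 to 0.92), and mcm6l is past 2-fold lower by median of ratios (-1.46) and by upper quartile (-1.52).

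At germ ring against the 1k-cell stage, 2 MCM genes were higher and 2 lower, with 16.0% of 10917 names higher and 34.2% lower (23.7% and 22.3% under median-of-ratios scaling). The higher ones were mcm6 (log2 ratio 8.76) and mcm3 (6.34), and 99.2% and 97.8% of all names had a lower ratio. The lower ones were mcm3l (-2.02) and mcm10 (-1.12), and the call of mcm10 is lost by median of ratios and by upper quartile (-0.60 in both). The ratios of mcm6l (-0.31) and mcm7 (-0.30) turned to 0.21 and 0.22 under median-of-ratios or upper-quartile scaling, and the median of all names was -0.43 as deposited.

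At germ ring against egg, 5 MCM genes were higher and 2 lower, with 48.1% of 10971 names higher and 19.8% lower (34.7% and 32.1% under median-of-ratios scaling). Here the log2 ratios ran from 9.97 for mcm6, 9.05 for mcm3, 4.92 for mcm5, 4.06 for mcm4 and 2.27 for mcm3l to -0.49 for mcm6l, -1.44 for mcm7 and -2.21 for mcm10. The median of all names was 0.88. By median of ratios mcm6l is past 2-fold lower as well (-1.25). This comparison and the 2 before it share libraries, so their counts are not independent.

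**Figure D3:**
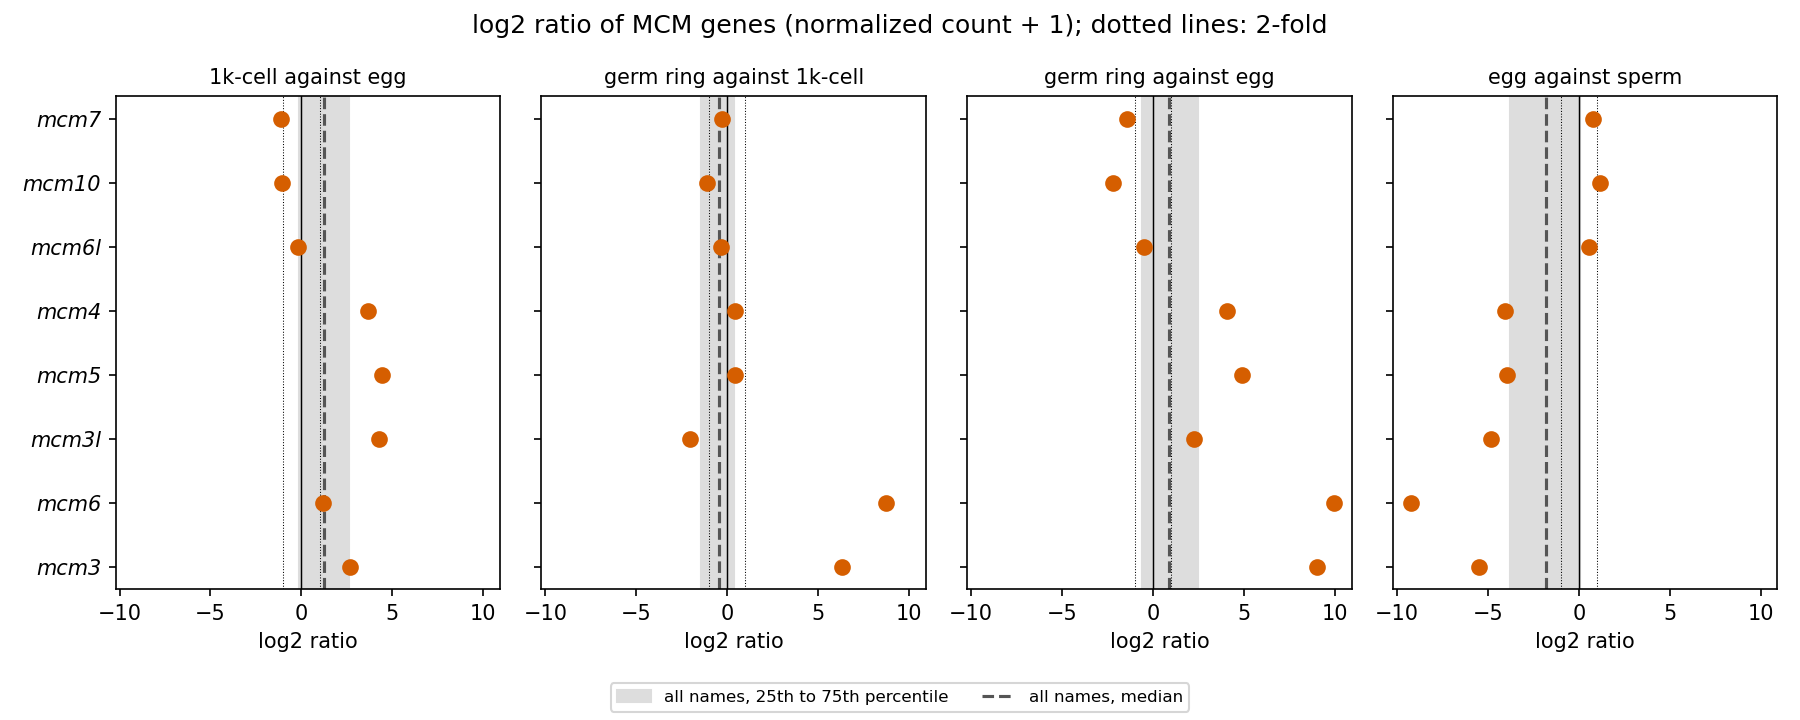
log2 ratio of each MCM gene (points) in 4 comparisons of single libraries, on the scale of normalized count plus 1, with the 25th to 75th percentile of all names in grey, their median dashed, no difference as a solid line and 2-fold as dotted lines. In germ ring against 1k-cell, mcm6 (8.76) and mcm3 (6.34) lie far right of the grey band and mcm3l (-2.02) left of it.

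Egg was also set against sperm, and here 1 MCM gene was higher and 5 lower, with 14.3% of 12443 names higher and 61.3% lower (29.7% and 43.0% under median-of-ratios scaling). The higher one was mcm10, 2.24-fold (2.11 to 2.39). The lower ones were mcm6, 763-fold (211 to 6304) on 2 reads in egg, mcm3, 56.6-fold (15.5 to 470), mcm3l, 28.5-fold (23.1 to 35.6), mcm4, 17.0-fold (15.1 to 19.2), and mcm5, 15.8-fold (13.4 to 18.7). The genes mcm7 (1.71-fold higher in egg) and mcm6l (1.47-fold higher) were within 2-fold as deposited, and past it, at log2 ratios of 2.04 and 1.82, when scaled by the median of ratios. The other folds depend on the scaling too. For mcm3l, mcm4 and mcm5 the log2 ratios were -4.82, -4.09 and -3.98 as deposited and -3.56, -2.82 and -2.71 by median of ratios. For mcm10 the log2 ratio was 1.16 as deposited and 2.43 by median of ratios. The sperm library also held the oocyte, testis, blood and pancreas markers given above.

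The embryo libraries were set against sperm as well. At the 1k-cell stage 2 MCM genes were lower and none higher, with 40.0% of 12453 names lower and 25.6% higher. The lower ones were mcm6, 290-fold (162 to 581), and mcm3, 7.16-fold (4.95 to 10.6). At germ ring mcm3 was 11.7-fold higher (10.2 to 13.5), and mcm3l (5.88-fold, 5.39 to 6.43) and mcm10 (2.06-fold, 1.88 to 2.27) were lower, with 19.4% of 12582 names higher and 46.3% lower (27.1% and 37.4% under median-of-ratios scaling). The call of mcm10 is lost by median of ratios (-0.54) and by upper quartile (-0.80).

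Genes that work with the helicase were read from fixed lists at germ ring against egg, where 48.1% of all names were higher and 19.8% lower as deposited, and 34.7% and 32.1% by median of ratios. Of 9 measured origin-loading genes 3 were 2-fold or more higher and 3 lower. Their median log2 ratio was 0.24, below the 0.88 of all names, and its sign turned with the scaling, to -0.52 by median of ratios. The highest were orc5, an origin recognition subunit (203 at germ ring, 25.8 in egg), and mcmbp, whose protein binds MCM subunits (3265 at germ ring, 613 in egg). The lowest were orc1 (2842 at germ ring, 15118 in egg) and orc6 (3923 at germ ring, 9447 in egg), likewise origin recognition subunits.

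Of 11 measured helicase-activation genes 2 were higher and 6 lower, beside 48.1% and 19.8% of all names. Their median log2 ratio was -1.22, and it was negative in the 3 other scalings as well, from -2.04 to -1.50. The helicase partner cdc45 had 527 normalized counts at germ ring and 10803 in egg, and gins2, of the GINS complex, 423 at germ ring and 5246 in egg. Of the higher ones, dbf4, the activator of the Cdc7 kinase that phosphorylates the ring, had 1336 at germ ring and 31.8 in egg, and gins3 had 1888 at germ ring and 456 in egg. The remaining GINS genes were within 2-fold, with log2 ratios of 0.98 for gins1 and 0.21 for gins4, listed under a clone name.

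Of 24 measured replication fork genes 13 were higher and 4 lower (median log2 ratio 1.04), and 10 higher against 9 lower when scaled by the median of ratios. Both as deposited and rescaled these counts lie near the shares of all names. The highest were chtf18 (2665 at germ ring, 81.4 in egg) and dscc1 (319 at germ ring, 13.9 in egg), both of a complex that loads the sliding clamp. The lowest were pole2, of DNA polymerase epsilon (387 at germ ring, 2787 in egg), and the primase gene prim2, listed under a clone name (521 at germ ring, 2209 in egg).

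In the list of E2F, pocket protein and MuvB genes, regulators known to act on cell cycle genes, 12 of 15 measured members were higher at germ ring than in egg and 1 was lower, beside 48.1% and 19.8% of all names, with a median of 1.72. Scaled by the median of ratios, 7 were higher and 1 lower, beside 34.7% and 32.1% of all names. The repressor gene e2f7 had 17.9 in egg, 3.80 in 1k-cell embryos and 1303 at germ ring. The pocket protein gene rbl1 had 23.8 in egg, 205 in 1k-cell embryos and 1397 at germ ring. The lowest was e2f5 (359 at germ ring, 1167 in egg). Between the embryo stages, at germ ring against 1k-cell, 16.0% of all names were higher and 34.2% lower. Here none of the 9 origin-loading genes was 2-fold higher and 5 were lower, but 1 was higher and 1 lower by median of ratios. Of the 11 activation genes 1 was higher and 3 lower, of the 24 fork genes 1 was higher and 6 lower, and of the 15 E2F, pocket protein and MuvB genes 2 were higher and 3 lower. By median of ratios these counts were 1 higher and 2 lower for activation, and 3 higher and 2 lower for the fork. They were 4 higher and 2 lower for the E2F list. In that scaling 23.7% of all names were higher and 22.3% lower.

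**Figure D4:**
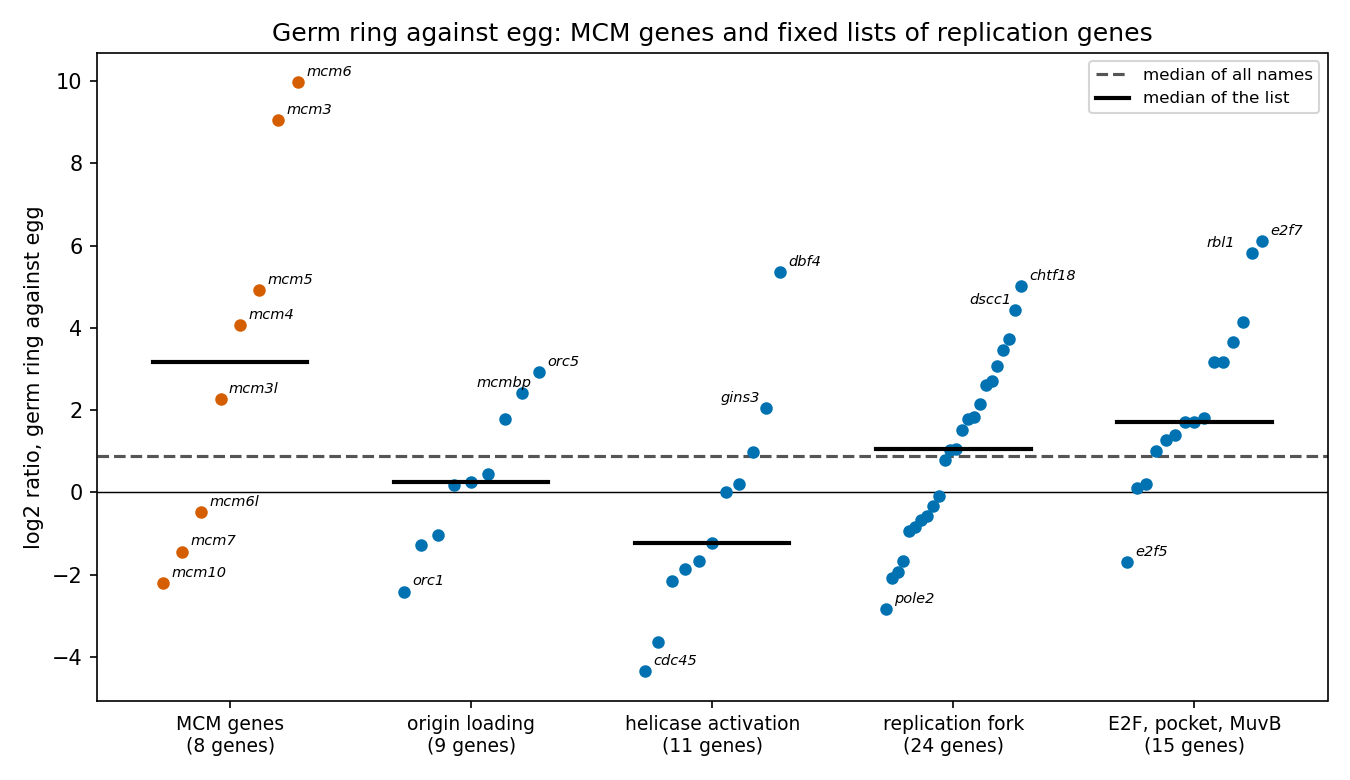
log2 ratio of germ ring against egg (vertical axis, normalized count plus 1) for the 8 MCM genes and for the measured members of 4 lists of replication genes, with each list's median as a bar and the median of all names (0.88) dashed. The MCM genes spread from -2.21 to 9.97, and the helicase-activation list is the only 1 of the 5 with a median below 0 as deposited (-1.22); by median of ratios the origin-loading median is below 0 too (-0.52).

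Likeness of pattern was measured as the Euclidean distance over the 4 libraries between log2 values centred on each gene's own mean, among 7616 other names that reach 100 in a library and carry no clone name. Among the MCM genes themselves mcm7 and mcm10 were closest (0.66 on the log2 scale), followed by mcm6l and mcm7 (0.86) and by mcm4 and mcm5 (0.89). The copies of a pair lay 9.50 apart for mcm6 and mcm6l and 6.35 apart for mcm3 and mcm3l. These distances are not particular to the pairs. The median of the 7616 other names lay at 8.82 from mcm6 and 6.61 from mcm3, but at 2.45 from mcm6l and 3.54 from mcm3l. The distance of mcm10 was 10.35 to mcm6 and 8.23 to mcm3. Distances to mcm6 and mcm3 rest in part on their 2 reads each in egg and on the 1 added to each count before taking logs.

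Nearest to the median pattern of mcm3 to mcm7 were mrpl37 (0.49), otub1l (0.54), mlck2 (0.55), noc3l (0.60) and rbm34 (0.65), where the median candidate lay at 3.80. This median left out mcm3l and mcm6l and drew on genes of all the sets above, so it need not be the pattern of any ring subunit. Nearest to mcm6 were sp5 (1.15), mapkapk3 (1.46) and otx1a (1.49), and no candidate lay within 1. Each of these 3 was listed at 0 in egg and between 664 and 946 at germ ring. Nearest to mcm3 were hkdc1 (0.39), stmn2a (0.65) and admp (0.98), also listed at 0 in egg.

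The patterns of the copies had closer neighbours. Nearest to mcm6l were actn2 (0.09), nup50 (0.09) and aup1 (0.11), and 678 candidates lay within 1. Nearest to mcm3l were b3galt2 (0.13), the germ plasm gene asz1 (0.27) and samm50 (0.27), with 99 candidates within 1. With 4 libraries many genes share a pattern by their order alone, so these names are a description.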

How the data were processed

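RNA values were measured in 4 libraries, 1 per group, and groups come from the sample titles. The authors deposited, per the file headers, a TMM-normalized signal: the read count per gene scaled by 1 factor per library. The submitters' processing notes name BWA 0.6.1-r104, edgeR and Zv9 (danRer7); for the counting tool and annotation no source used here gives a name. Of the deposited values, 100% in each library were whole multiples of 1 step within 0.01 reads, which gave back the reads.

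Each table held 15328 entries for 14244 names. Of a repeated name the row with the highest sum was used; no MCM gene was repeated. Ratios are log2 of the value plus 1 for names at 10 or more in either library, called at 2-fold. Intervals are exact Clopper-Pearson 95% intervals of the reads and cover counting error only. List genes were matched by symbol or by a RefSeq synonym, and only matched genes were counted. Matched were 9 of 10 origin-loading, 11 of 17 activation, 24 of 28 fork and 15 of 22 E2F, pocket protein and MuvB genes. Of the markers, 10 of 21 sperm tail, 10 of 16 meiotic, 12 of 14 oocyte and 13 of 14 red blood cell genes were matched. So were 13 of 16 exocrine pancreas, 18 of 19 epidermis and 10 of 10 testis somatic genes. Members and lists were chosen with earlier results of these data known. All MCM genes are named, and from each list the 2 highest and 2 lowest ratios could be named. Outside that rule, gins1 and gins4 were named as the remaining GINS genes. For genes of like pattern the 5 nearest to the median of mcm3 to mcm7 (without mcm3l and mcm6l) and the 3 nearest to a single gene could be named.

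Alternatives were pseudocounts of 0.1 and 5, no floor or a floor of 50, a 4-fold limit, scaling by upper quartile, by equal totals or by the median of ratios, and summed repeated rows. The arithmetic was checked on simulated reads with counting error only. Spread between samples and changes in names with few reads were not part of that check. The hydroxymethylation region lists were not used here. Software was Python 3.11.15 with numpy 2.4.6, scipy 1.17.1, pandas 2.3.3 and matplotlib 3.10.9.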

Additional observations from a re-analysis of the deposited data

How the results depend on the processing

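No paired analysis was possible because each group holds 1 library. Counts of MCM genes past 2-fold kept within 1.5 times under pseudocounts of 0.1 and 5, no floor, equal-total scaling and summed repeated rows, and the shares of the copies were the same with summed rows. With a floor of 50, 3 MCM genes were higher at the 1k-cell stage than in egg, since mcm3 and mcm6 drop out. Under median-of-ratios scaling 3 were higher in egg than in sperm, 3 higher and 1 lower at germ ring than in sperm, and 1 lower at germ ring than at the 1k-cell stage, where the call of mcm10 ends. Under upper-quartile scaling 3 were higher in egg than in sperm, beside 26.8% of all names. At germ ring against sperm 2 were higher and 1 lower, beside 23.0% and 41.8% of all names. At germ ring against the 1k-cell stage 1 was lower, beside 22.2% of all names. With a 4-fold limit 0 were higher in egg than in sperm, 0 lower at the 1k-cell stage than in egg, and 1 lower at germ ring than at the 1k-cell stage, than in egg and than in sperm. Shares of all names were not computed at the 4-fold limit or the floor of 50, so those counts have no background here. Scaling moves the log2 ratios of 1k-cell against egg by -1.28 (median of ratios) and -1.34 (upper quartile). Over the scalings no MCM gene changed sign in 1k-cell against egg, germ ring against egg or egg against sperm. In germ ring against 1k-cell mcm6l and mcm7 did, in 1k-cell against sperm mcm10, and in germ ring against sperm mcm4 and mcm6l, all within 2-fold as deposited. Scaling of the summed pairs and of the sum of all 8 genes was tried after seeing the data; the sum of mcm6 and mcm6l in egg against sperm had a log2 ratio of -0.04 as deposited and 1.23 under median-of-ratios scaling. In germ ring against egg it had 0.36 and -0.40. Shares per coding length were not run, since no protein lengths are at hand. Depth limits mcm3 and mcm6 in egg, where 3 reads are worth 5.95.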
